A study of Mus musculus with 3 samples.

Results

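Cells with much Sca1 and little CD48 on their surface were picked out of neonatal liver blood progenitors by their antibody tags, and their RNA was described. The study counted RNA and 10 antibody tags together (CITE-seq, in which antibodies carry DNA barcodes that are sequenced with the cell's RNA) in neonatal mouse liver cells (postnatal day 0) that had been sorted as lineage-negative and KIT-positive. The 3 groups were mice expressing the leukemia fusion MLL-ENL with Skida1 deleted, mice expressing MLL-ENL, and Control mice, with 1 library each. The promoter or Cre line behind the fusion, the deleted part of Skida1, the strain, the sex and the number of pooled animals are not stated in the labels. The members were 297 cells of the MLL-ENL Skida1-deleted library, 325 of the MLL-ENL library and 172 of the Control library. These 794 cells were about 3% of the 26471 cells that passed the filters, out of 28544 listed barcodes. They were chosen on measured tag values, as the top 20% of each library by Sca1 and, among these, the lowest 15% by CD48, so their number is fixed by the rule. The other 85% of the Sca1 top 20%, called the remaining Sca1-high cells here, numbered 1682, 1842 and 976 in the same 3 libraries.

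Hematopoietic stem cells keep blood formation going by renewing themselves and by giving rise to multipotent progenitors, which in turn make myeloid, lymphoid and erythroid cells. In the mouse, stem cells are sorted by the surface proteins Sca1 (made from Ly6a), KIT, CD150 (Slamf1) and CD201 (Procr) together with the absence of CD48, a protein of most progenitors past the stem cell stage. The fetal and neonatal liver is a site of blood formation before the bone marrow takes over. MLL fusions are known to keep HOXA genes, Meis1 and Mecom active in such progenitors, and SKIDA1 is a protein linked to Polycomb complexes.

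Because RNA was not used to choose the members, the RNA of the genes behind the tags can be set beside the tags, and 2 promoters of genes high in members and 1 of a gene low in them are shown first. Each is the 250 bases before the start given in the RefSeq promoter table, on the plus strand in GRCm38.p6, with the E-box letters CAGCTG in capitals where present. Procr encodes CD201, Pdzk1ip1 encodes a membrane protein found in stem cells, and Cd48 encodes the protein used to choose the members. RefSeq's gene spans begin earlier for Procr (155751125) and Cd48 (171681245), so the Procr window overlaps its gene span and the Cd48 window lies inside it. The windows are chr2:155750967-155751216 for Procr, chr4:115088458-115088707 for Pdzk1ip1 and chr1:171681742-171681991 for Cd48.
Procr: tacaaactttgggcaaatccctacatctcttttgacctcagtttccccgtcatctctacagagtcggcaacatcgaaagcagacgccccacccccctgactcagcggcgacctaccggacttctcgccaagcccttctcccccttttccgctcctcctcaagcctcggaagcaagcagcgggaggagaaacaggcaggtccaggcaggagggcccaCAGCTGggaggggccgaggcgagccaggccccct
Pdzk1ip1: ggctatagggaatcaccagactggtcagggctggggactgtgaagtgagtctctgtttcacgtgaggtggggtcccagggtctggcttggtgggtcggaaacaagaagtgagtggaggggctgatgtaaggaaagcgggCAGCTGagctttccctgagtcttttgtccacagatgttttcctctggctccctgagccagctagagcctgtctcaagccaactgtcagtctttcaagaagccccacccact
Cd48: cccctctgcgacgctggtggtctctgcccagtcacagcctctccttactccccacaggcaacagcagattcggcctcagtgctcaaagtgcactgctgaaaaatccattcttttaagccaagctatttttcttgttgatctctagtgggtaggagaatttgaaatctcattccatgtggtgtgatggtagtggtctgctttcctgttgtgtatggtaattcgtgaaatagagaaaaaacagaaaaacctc
Read on both strands, CAGCTG stood in the Procr and Pdzk1ip1 windows and not in that of Cd48. It stood in 13.0% of the windows of the same length before 32851 starts. The letters AGATAA (9.99% of those windows) and AGGAAG (29.5%) stood in none of the 3 windows shown.

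Members had lower depth than the remaining Sca1-high cells. Their median UMI count was 5532 in the Skida1-deleted library, 5018 in MLL-ENL and 9136 in Control, against 8691, 8034.5 and 16139 in the remaining cells. In MLL-ENL 107 members (32.9%) held fewer than 3000 UMIs, against 9 in the Skida1-deleted library and 3 in Control. The 107 shallow MLL-ENL members had a median Sca1 tag count of 48, against 410.5 in the 218 deeper ones, and a median tag sum of 348, against 1008. They stood apart in RNA too. Their 30 genes of the stem cell list summed to 1094 CPM [956–1246], against 4744 CPM [4633–4857] in the deeper members, where CPM is the UMI count scaled to a common total of gene UMIs per class and brackets are 95% exact Poisson intervals. Some results are therefore also given without cells under 3000 UMIs. Between 17 and 33 barcodes were shared by each pair of libraries.

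The cells just inside and just outside the CD48 boundary had centred log ratios of 3.27 on both sides in the Skida1-deleted library, 2.45 in MLL-ENL and 2.73 in Control. At the Sca1 boundary they were 1.07, 0.812 and 1.48, likewise equal on both sides at this precision.  The last cell inside had 835 CD48 counts in the Skida1-deleted library, 325 in MLL-ENL and 1058 in Control, against 869, 244 and 804 counts in the first cell outside.

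The CD48-low cells are low, not empty, for CD48. The median CD48 tag count of members was 403 in the Skida1-deleted library, 176 in MLL-ENL and 209 in Control, against 1838.5, 1441 and 2419 in the remaining cells. Both that difference and the Sca1 level follow from the choice of members, and the centred log ratio ties the other tags to them, so no tag was tested.

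CD201, the endothelial protein C receptor and a stem cell marker, was higher on members in each library. Its median count was 14 in the Skida1-deleted library, 8 in MLL-ENL and 39.5 in Control, against 4, 5 and 8 in the remaining cells. In the 218 MLL-ENL members of at least 3000 UMIs the CD201 median was 15. CD150, the SLAM receptor of stem cells, had a median of 51 on Control members, against 11 on the remaining cells. It differed little in the MLL-ENL libraries, at 11 against 9 with Skida1 deleted and 11 against 10 without the deletion. CD34, a sialomucin carried by many progenitors, had lower counts on members. Its medians were 14 in the Skida1-deleted library, 11 in MLL-ENL and 39 in Control, against 32, 20 and 130.5. Members' median tag sums were lower too, at 1363, 641 and 1509.5 against 2710, 2322 and 3639. The tag for KIT, CD117, was likewise at 233, 129 and 218 counts against 352, 288 and 338. In median centred log ratio CD34 on members differed from the remaining cells by -0.70, -0.22 and -0.99. CD41, the platelet integrin subunit, was nearly level, at 6, 5 and 5 counts in members against 5, 5 and 4.

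**Figure D1:**
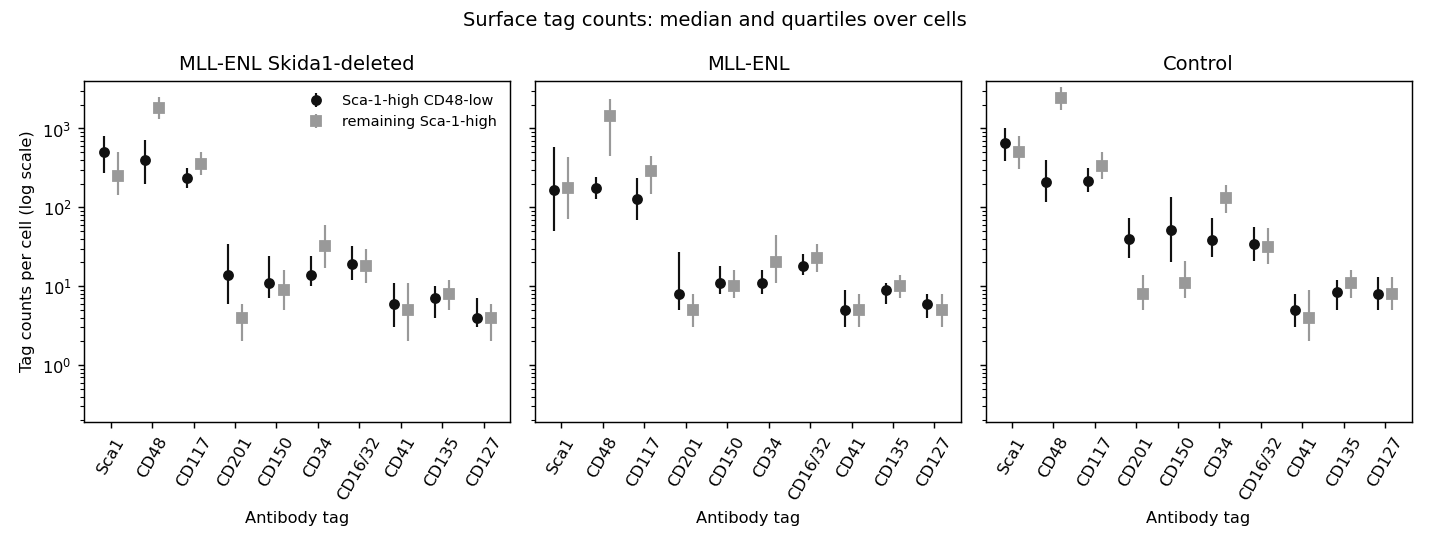
Median tag counts per cell on a log axis, with quartiles as bars, for 10 antibody tags in members and remaining Sca1-high cells, 1 panel per library. CD201 lies higher and CD34 and CD48 lie lower in members of each library, and CD150 separates the classes mainly in Control, at 51 against 11 counts.

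The RNA of the genes behind these tags was set beside them. Procr RNA was 8.05-fold higher in members of the Skida1-deleted library [5.99–10.8], 7.59-fold in MLL-ENL [5.71–10.1] and 7.18-fold in Control [5.69–9.04], where brackets are 95% exact binomial intervals that cover counting error only. Slamf1 RNA was 4.89-fold higher in Control members [3.22–7.31]. Its folds in the other libraries, 1.41 [0.650–2.76] with Skida1 deleted and 1.49 [0.574–3.27] in MLL-ENL, had intervals that include 1. Cd34 RNA was at 0.657, 0.673 and 0.619 of the remaining cells' level in the Skida1-deleted, MLL-ENL and Control libraries. Itga2b, which encodes CD41, was at 1.47-fold [0.988–2.13], 0.945-fold and 1.14-fold.

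Members and remaining cells were compared gene by gene with edgeR's quasi-likelihood test on UMIs summed per library and class, with the library as a block. As the 3 libraries are of 3 genotypes, they came from different mice, and this tests the difference common to them. The number of animals in each library is not stated. Of 12661 genes tested, 1903 were higher (15%) and 2528 lower (20%) in members at an adjusted p under 0.05. Of the 4431 called, 3906 differed in the same direction in all 3 libraries. At 2-fold or more, 808 were higher and 208 lower. The counts were 261 and 96 with no library block, and 114 and 75 under a stricter cell filter. That filter gave 244 members in the Skida1-deleted library, 196 in MLL-ENL and 87 in Control, of which 214, 114 and 32 were members here too. In bulk sums a shift in the mix of cells and a change per cell cannot be told apart.

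Among genes with a mean of at least 30 CPM in either class, those most raised in members included stem cell, imprinted and adhesion genes. Meg3, an imprinted long noncoding RNA of the Dlk1 locus, was at 305 CPM in the Skida1-deleted library, 390 in MLL-ENL and 110 in Control members, against 16.7, 21.3 and 6.01 CPM in the remaining cells. It rose by 4.0 on the log2 scale (SE 0.07, edgeR adjusted p = 1.83e-12), and was seen in 51.5%, 36.6% and 41.9% of members. Every members' library lay above every remaining one. H19, the imprinted partner of Igf2, was at 52.7, 65.4 and 52.5 CPM in members of the Skida1-deleted, MLL-ENL and Control libraries, against 4.61, 5.25 and 3.54 CPM (log2 fold change 3.48, SE 0.15, edgeR adjusted p = 1.87e-08). Igf2, the fetal growth factor, which lay under that minimum, was at 19.5, 45.0 and 12.6 CPM in members against 0.576, 0.680 and 0.233 CPM (log2 fold change 5.44, edgeR adjusted p = 6.71e-08).

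Pdzk1ip1 was at 51.8, 75.6 and 111 CPM in members of the Skida1-deleted, MLL-ENL and Control libraries, against 6.28, 6.56 and 9.45 CPM (log2 fold change 3.20, edgeR adjusted p = 1.87e-08). Col4a1 and Col4a2, which encode basement membrane collagen chains and lie head to head on chromosome 8, rose by 3.04 and 2.97. Esam, an adhesion protein of stem and endothelial cells, was at 9.97, 20.4 and 59.8 CPM in members against 1.73, 1.94 and 9.26 CPM (log2 fold change 2.63, edgeR adjusted p = 1.64e-06). The other genes among the 12 highest over that minimum were Procr (2.72), the B cell adaptor gene Bank1 (2.58), Ndnf (2.55), the guanylate cyclase subunit gene Gucy1a1 (2.42), Hacd4 (2.32) and the homeobox gene Nkx2-3 (2.27).

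**Figure D2:**
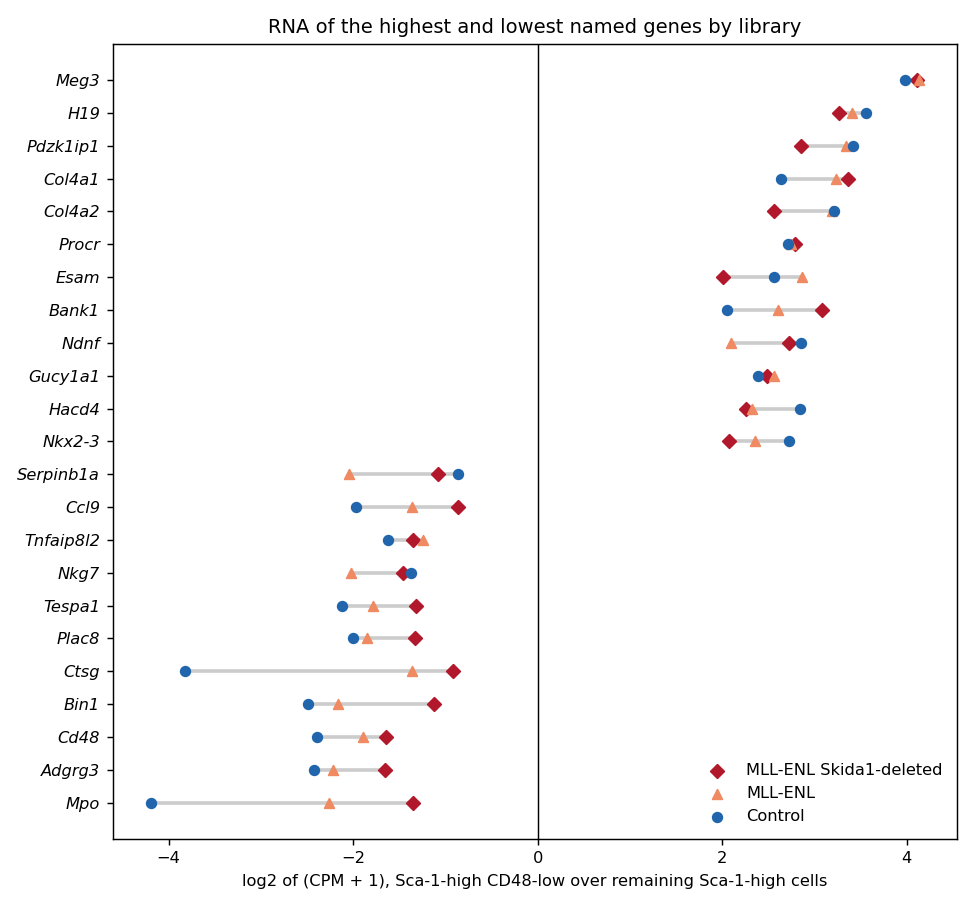
Log2 ratio of (CPM + 1) in members over remaining Sca1-high cells for the 12 highest and 11 of the 12 lowest named genes, 1 point per library. The high genes lie right of 0 and the low genes left of 0 in each of the 3 libraries, led by Meg3 at the top.

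The genes most reduced included genes of granulocytes and early progenitors. Mpo, the myeloperoxidase of granulocyte precursors, was at 142 CPM in the Skida1-deleted library, 63.0 in MLL-ENL and 22.8 in Control members, against 363, 305 and 434 CPM. It fell by 2.52 on the log2 scale (SE 0.30, edgeR adjusted p = 3.43e-05). In the Skida1-deleted library 1 member held 133 of the 298 Mpo UMIs (44.6%). Cd48 RNA fell by 2.32 (SE 0.13, edgeR adjusted p = 1.58e-07), which follows the surface protein that chose the members. Plac8, high in early lymphoid and myeloid progenitors, was at 264, 233 and 253 CPM in members of the Skida1-deleted, MLL-ENL and Control libraries, against 665, 843 and 1015 CPM (log2 fold change -1.92, edgeR adjusted p = 6.71e-08).

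The stem cell list held 30 tested genes, of which 28 rose and none fell. Of all tested genes 15% were higher and 20% lower. Like the members and the other lists, it was chosen with earlier results of these data known. The list's median log2 fold change was 1.60, against -0.02 over all 12661 genes. Its sum was 4390 CPM in the Skida1-deleted library, 4289 in MLL-ENL and 4494 in Control members, against 1992, 1858 and 1782 CPM. Mecom, a transcription factor gene needed for stem cell maintenance, was at 429, 320 and 181 CPM against 146, 100 and 22.2 CPM (log2 fold change 1.79, edgeR adjusted p = 1.52e-05). Hlf, which encodes a stem cell transcription factor, was at 467, 438 and 404 CPM against 231, 192 and 135 CPM (log2 fold change 1.06, edgeR adjusted p = 2.09e-06). Mllt3, a stem cell regulator whose protein is of the same family as ENL, rose by 2.15 and Hoxb5, a homeobox gene of long-term stem cells, by 3.78. Under the stricter cell filter 15 of the list were called. Hopx (0.08) and Ptger4 (-0.74, edgeR adjusted p = 0.0501) were the 2 genes not called. Slamf1 rose by 1.22 (edgeR adjusted p = 0.0155), but without Control its log2 fold change was 0.33 and its adjusted p 0.571.

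Ly6a, which encodes Sca1 itself, rose by 1.15 (SE 0.10, edgeR adjusted p = 2.86e-06), with 76.5, 64.8 and 130 CPM in members of the Skida1-deleted, MLL-ENL and Control libraries, against 27.2, 30.5 and 49.2 CPM. Skida1 did not pass the test (0.34, edgeR adjusted p = 0.337). In members it was at 2.37 CPM in the Skida1-deleted library, 20.4 in MLL-ENL and 1.46 in Control.

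After thinning each cell to 3000 UMIs, a UMI of Hlf was found in 74.7% of members of the Skida1-deleted library [69.2–79.6], 62.8% in MLL-ENL [56.1–69.3] and 70.4% in Control [62.9–77.2], by exact binomial intervals, against 51.2%, 39.1% and 33.8% of remaining cells. Cells under 3000 UMIs were left out, which in MLL-ENL were 107 of 325 members and 124 of 1842 remaining cells. Unthinned and over all cells, the Hlf shares were 86.5%, 58.5% and 87.2% of members, against 76.8%, 56.5% and 64.9% of remaining cells. Mecom was found in 72.9%, 56.4% and 47.3% of thinned members, against 41.3%, 27.7% and 7.49%. Unthinned, the Mecom shares were 89.6%, 52.3% and 73.8% of members, against 69.7%, 49.2% and 27.5% of remaining cells. Mpo was found in 9.03%, 12.4% and 5.92% of thinned members, against 43.9%, 39.8% and 47.9%. As a background, cells outside the Sca1 gate with at least 10 UMIs of Klf1, the erythroid transcription factor gene, were thinned in the same way. Their median depths were 54664, 48234.5 and 45973 UMIs, but they numbered only 67 in the Skida1-deleted library and 38 in MLL-ENL, against 1157 in Control. Mecom was found in 1.49%, 2.63% and 0.0864% of them and Mpo in 7.46%, 0% (where a floor of 3 counts allows up to 7.89%) and 4.84%. With at least 5 Klf1 UMIs, a minimum chosen after those cell numbers were seen, there were 918, 827 and 2422 cells. The shares then were 1.2%, 0.363% and 0% (where a floor of 3 counts allows up to 0.124%) for Mecom and 6.21%, 3.26% and 4.75% for Mpo. Unthinned, Mpo was found in 18.9%, 22.5% and 15.7% of members of the Skida1-deleted, MLL-ENL and Control libraries, against 26.6%, 22.2% and 20.9% of these deeper background cells. The unthinned shares are not at equal depth. Thinned to 3000 UMIs, members' Mpo shares were 9.03%, 12.4% and 5.92%, against 6.21%, 3.26% and 4.75% of these background cells. In MLL-ENL the exact binomial intervals were [8.32–17.5] and [2.16–4.71]. Whether the members' Mpo shares exceed the background was not tested.

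More lymphoid and granulocyte genes fell than rose. Of 20 tested genes of multipotent and lymphoid priming, 11 fell and 3 rose (median log2 fold change -0.93). Of all tested genes 20% were lower and 15% higher, so the 3 that rose were near that share. The list's sum was 2742, 2271 and 1707 CPM in members of the Skida1-deleted, MLL-ENL and Control libraries, against 2549, 2691 and 2573 CPM, so it was higher in members with Skida1 deleted. Flt3, a cytokine receptor of multipotent progenitors past the stem cell stage, fell by 0.48 (edgeR adjusted p = 0.00171), with 65.1, 56.4 and 85.0 CPM in members against 65.6, 76.1 and 114 CPM. Ighm fell by 1.61 and Rag2 by 2.07. Ltb, a TNF family ligand, rose by 1.53 (edgeR adjusted p = 2.74e-07), at 151, 169 and 342 CPM against 49.2, 61.7 and 84.4 CPM. Of 21 granulocyte-monocyte genes 14 fell and 3 rose (median -1.29), the 3 again near the 15% of all tested genes. Clec12a fell by 3.06, Csf1r by 1.96, Cebpa by 1.54 and Prtn3 by 0.72, while Gfi1, a repressor also needed in stem cells, rose by 1.44.

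Cell cycle genes fell almost as a whole. All 34 S phase genes and 39 of 40 G2M genes fell, with medians of -0.71 and -0.74 on the log2 scale, and none rose. Under the stricter cell filter 0 and 1 of them were called lower. Top2a, the topoisomerase of dividing cells, was at 273, 187 and 351 CPM in members of the Skida1-deleted, MLL-ENL and Control libraries, against 472, 383 and 515 CPM (log2 fold change -0.97, edgeR adjusted p = 1.65e-06). Mki67 was at 216, 234 and 321 CPM, against 343, 323 and 450 CPM. Cdk6, which drives exit from quiescence, fell by 1.29. All 28 genes of MYC and ribosome biogenesis fell (median -0.57), Myc itself by 1.10. Of 18 genes of cell cycle inhibition and quiescence 9 rose and none fell. Of all tested genes 15% were higher and 20% lower. The inhibition and quiescence list shares Cdkn1c and Ndn with the stem cell list, and Egr1, Btg2 and Klf6 with the immediate early genes. Cdkn1c, the inhibitor p57, was at 111, 141 and 143 CPM in members against 32.3, 33.1 and 23.9 CPM (log2 fold change 1.96, edgeR adjusted p = 3.29e-07), and Txnip was at 270, 221 and 398 CPM against 152, 119 and 152 CPM.

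**Figure D3:**
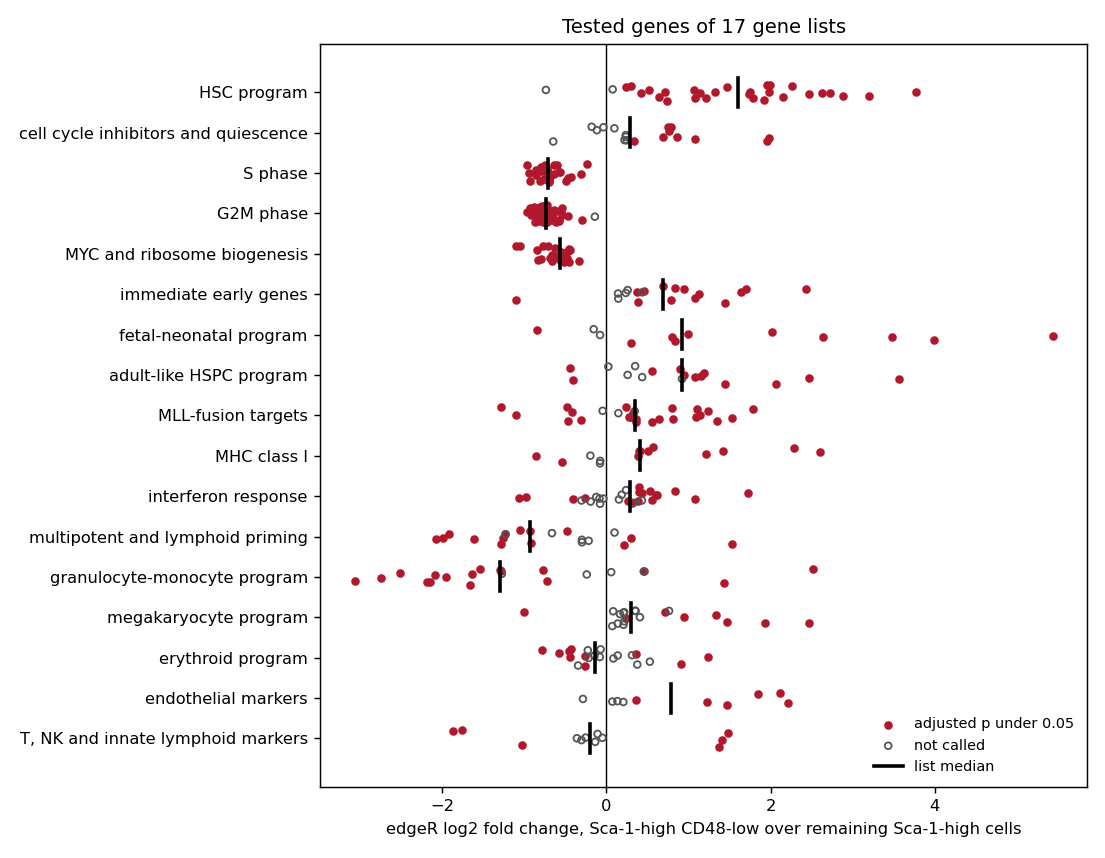
edgeR log2 fold change, members over remaining Sca1-high cells, of each tested gene in 17 gene lists, with called genes in red, others open and the list median as a black bar. The stem cell list lies to the right with a median of 1.60, and the S phase and G2M lists lie to the left at -0.71 and -0.74.

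Of 27 tested MLL-fusion targets 18 rose and 6 fell (median 0.34). Of all tested genes 15% were higher and 20% lower, so the 6 that fell were near that share. Hoxa5 was at 74.6, 78.6 and 20.9 CPM in members of the Skida1-deleted, MLL-ENL and Control libraries, against 24.5, 32.2 and 8.19 CPM (log2 fold change 1.24, edgeR adjusted p = 7.46e-06), and Hoxa10 rose by 1.09. Hoxa9 rose by 0.24 (edgeR adjusted p = 0.0433). Of 12 fetal-neonatal genes 9 rose and 1 fell, Igf2bp3 by 0.85. Lin28b, the fetal RNA-binding regulator, was not called (-0.16, edgeR adjusted p = 0.425). Of 17 adult-like genes 10 rose and 2 fell. That list shares Egr1, Fosb, Junb, Klf4 and Nr4a1 with the immediate early genes and Vwf with the stem cell list. It also holds Ly6a, the gene of the Sca1 tag. Immediate early genes rose in 13 of 19 and fell in 1. The transcription factor genes Fos (1.71) and Klf2 (1.64) were among them. In Control 1 member held 63 of the 82 Fos UMIs (76.8%), and 4.07% of members carried Fos there, against 7.58% of remaining cells.

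Of 28 interferon response genes 13 rose and 4 fell (median 0.29), against 15% higher and 20% lower of all tested genes. Ifi44 was at 38.9, 50.4 and 77.7 CPM in members of the Skida1-deleted, MLL-ENL and Control libraries, against 10.2, 12.5 and 21.5 CPM (log2 fold change 1.73, edgeR adjusted p = 5.52e-07), while Ifi27l2a fell by 1.06 and Isg15 was not called (-0.19). Of 14 MHC class I genes 9 rose and 2 fell. H2-K1, a class I heavy chain, was at 368, 414 and 719 CPM against 212, 265 and 401 CPM. Counts of the H2-Q and H2-T genes are uncertain, since near-identical copies can share reads. Among 31 cytokine and adhesion receptors 10 rose and 8 fell, against 15% higher and 20% lower of all tested genes. Of the 16 genes behind or near the tags 5 rose and 6 fell. Cd34 fell by 0.82 (edgeR adjusted p = 1.94e-06), and Kit, the receptor used in the sort, was not called (-0.12).

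Markers of other lineages were mixed. Of 20 megakaryocyte genes 7 rose and 1 fell, where 15% of all tested genes were higher and 20% lower, and Gp9 rose by 0.94. Pf4, a platelet chemokine gene, was at 159, 11.4 and 22.8 CPM in members of the Skida1-deleted, MLL-ENL and Control libraries, against 21.6, 23 and 8.57 CPM. Its call (log2 fold change 1.47, edgeR adjusted p = 0.0183) was lost without the Skida1-deleted library (0.14, adjusted p = 0.722), where 1 cell held 199 of 335 UMIs. Of 21 erythroid genes 3 rose, near the 15% of all tested genes, and 7 fell, and their sum was 2430, 2948 and 4131 CPM in members against 1813, 2161 and 2594 CPM. Of 13 tested genes of the mast cell, basophil and eosinophil list 4 rose and 4 fell. The list's sum was 942, 1015 and 1773 CPM against 855, 936 and 776 CPM. Srgn alone held 735, 828 and 767 CPM of the members' sums, against 685, 785 and 614 CPM in the remaining cells. The mast cell protease gene Cpa3 was at 1.90, 2.40 and 90.4 CPM in members, against 8.20, 9.86 and 9.08 CPM. In Control 4 members held all 896 UMIs of the mast cell protease gene Cma1.

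Among tested endothelial and macrophage list genes more rose than fell, but defining genes of both cell types were low or absent in some libraries. Of 10 tested endothelial genes 6 rose, and the sum of the list was 614, 522 and 612 CPM in members of the Skida1-deleted, MLL-ENL and Control libraries, against 394, 390 and 496 CPM. Egfl7 alone held 323, 278 and 361 CPM of the members' sums, against 221, 237 and 356 CPM in the remaining cells. Tie1 rose by 1.85 and Emcn by 1.47. The defining endothelial gene Cdh5 was at 0 CPM in members of both MLL-ENL libraries and 3.40 CPM in Control, and Stab2 was at 0 in all 3. Of 7 tested macrophage genes 6 rose, and their sum was 31.8, 36.6 and 131 CPM against 17.2, 20.9 and 27.8 CPM. Without Control 3 rose, and 1 Control member held 92 of its library's 270 macrophage marker UMIs. The macrophage gene C1qa was at 0.95, 0 and 15.1 CPM in members, against 0.192, 0.680 and 0.838 CPM. Of 7 hepatocyte genes 1 rose and 1 fell, of 3 mesenchymal genes 2 rose and 1 fell, and of 12 T, NK and innate lymphoid genes 3 rose and 3 fell, where 15% of all tested genes were higher and 20% lower. Cd3e was found in no thinned member, for which a floor of 3 counts allows a share of cells with a UMI of up to 1.04%, 1.38% and 1.78% in the same 3 libraries. The part of these cells in the class difference was not tested. With 7 members and 5 remaining cells of high mast, macrophage or Pf4 counts left out, a choice made after seeing the data, 1939 genes were higher and 2502 lower.

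Within the members the CD201 tag went with the stem cell list. Members above their library's median CD201 ratio had a sum of 6234 CPM in the Skida1-deleted library [6064–6408], 5301 in MLL-ENL [5152–5454] and 5853 in Control [5693–6017]. Those below it had 3220 [3123–3320], 3114 [2991–3241] and 3520 CPM [3415–3628]. In each library the CD201-lower members still lay above the remaining cells. Meg3 was at 586, 589 and 193 CPM in CD201-upper members and 126, 158 and 50.1 CPM in CD201-lower ones. The G2M sum was 2105, 3182 and 4182 CPM in CD201-upper members and 4854, 4189 and 6671 CPM in CD201-lower ones. CD48 also differed between them, with median counts of 311.5, 165 and 139 against 486, 184 and 356. In MLL-ENL the CD201-upper members also had a median Sca1 count of 396.5, a tag sum of 928 and 5266 UMIs, against 64, 453 and 3377 in the CD201-lower ones. The part of depth in the difference was not tested, and no test was made between cells of 1 library.

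**Figure D4:**
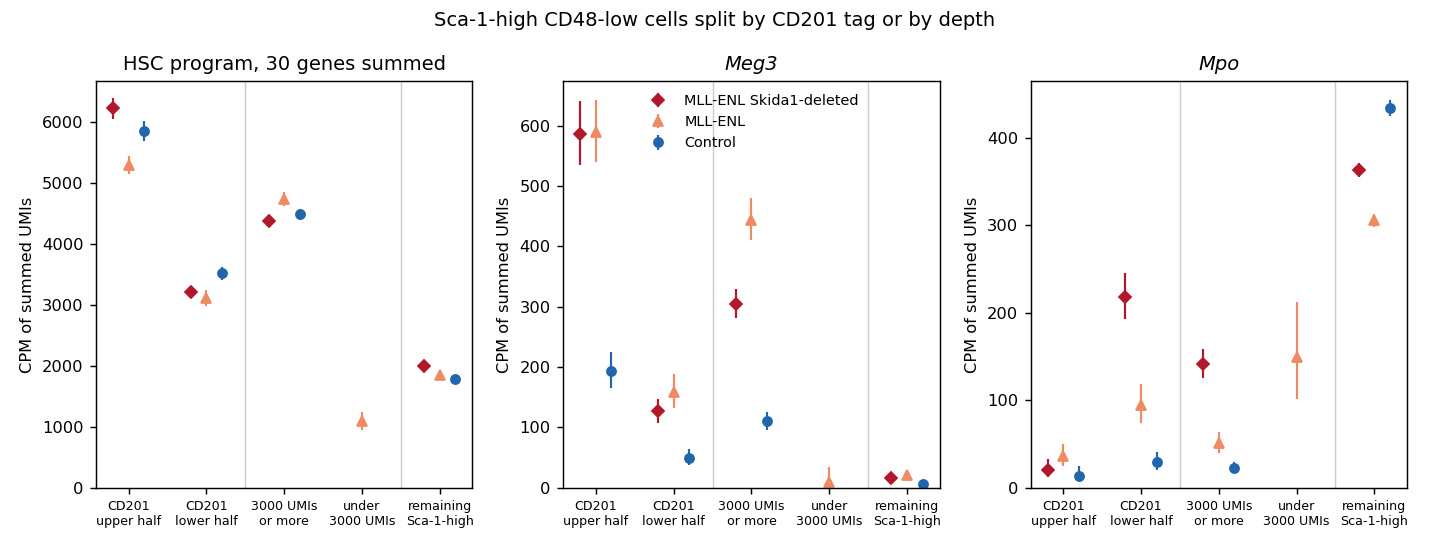
CPM of the summed stem cell list, Meg3 and Mpo in members split by the CD201 tag and by depth, and in remaining Sca1-high cells, by library, with 95% Poisson bars that cover counting error only. Groups under 20 cells are not drawn. The shallow MLL-ENL members, at 1094 CPM of the stem cell list, lie below the remaining cells at 1858 CPM.

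The CD150 tag split members otherwise. Slamf1 was at 7.99, 9.67 and 30 CPM in members above the CD150 median of the Skida1-deleted, MLL-ENL and Control libraries, against 1.02, 0 and 5.85 CPM in those below it. These were only 9, 7 and 31 UMIs, against 1, 0 and 6. In MLL-ENL the median CD150 count was 15 above and 8 below, against 10 in the remaining cells. Flt3 was at 29.3, 24.9 and 51.3 CPM above the median, against 106, 80.5 and 119 CPM below it. The stem cell sum differed by CD150 in Control, at 5108 against 3876 CPM. In the Skida1-deleted library it was 4316 against 4475 CPM, and in MLL-ENL 4313 against 4271 CPM. The MLL-ENL members above the CD150 median had a median Sca1 count of 89, a tag sum of 490 and 4115 UMIs, against 393, 917 and 5406 below it.

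Of the shallow MLL-ENL members, the erythroid sum was 4082 CPM and Car1, a carbonic anhydrase gene of early erythroid cells, 718 CPM, against 2787 and 166 CPM in the deeper members. Meg3 was at 9.64 CPM in the shallow members and 444 CPM in the deeper ones. In the 124 remaining cells of the same low depth the stem cell sum was 1158 CPM. With cells under 3000 UMIs left out in every library, 2015 genes were higher and 2534 lower, and Meg3, Procr and Mecom had log2 fold changes of 4.05, 2.75 and 1.84.

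The genotypes were set side by side within the members. Each had 1 library, so no test was possible, brackets are 95% exact intervals of counting error, and no difference has a replicate check. The comparisons of MLL-ENL Skida1-deleted with MLL-ENL and of MLL-ENL with Control share the MLL-ENL library. The libraries also differ in sex-linked RNA. Xist was at 4.75 CPM in members of the Skida1-deleted library, 1667 in MLL-ENL and 1005 in Control, and Ddx3y at 109, 0 and 0 CPM, so sex and the deletion of Skida1 cannot be told apart. Between MLL-ENL and Control, 104 of 3667 eligible genes (those reaching 50 CPM in 1 library and 50 UMIs in both together) were at least 2-fold higher (2.84%) and 109 at least 2-fold lower (2.97%). Between the Skida1-deleted library and MLL-ENL, 8 of 3381 were higher (0.237%) and 10 lower (0.296%).

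Pcdh7, a protocadherin gene, was at 294 CPM in MLL-ENL members and 36 CPM in Control members, 8.19-fold higher [6.40–10.6]. In the remaining cells the fold was 7.70. Lst1, an immune regulator gene, was 4.83-fold higher [3.87–6.07] and Tent5a, a poly(A) polymerase gene, 4.40-fold higher [3.23–6.09]. Hoxa5 was at 78.6 CPM in MLL-ENL and 20.9 CPM in Control members, 3.76-fold higher [2.65–5.44]. Tox, a chromatin factor gene of lymphoid cells, was 5.52-fold higher [3.33–9.62] in members and 1.93-fold in the remaining cells. Lin28b was 4.65-fold higher [2.99–7.47] in members and 2.28-fold in the remaining cells. Whether these folds differ between the classes was not tested.

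Mecom was at 320 CPM in MLL-ENL and 181 CPM in Control members, 1.77-fold higher [1.55–2.03], whereas in the remaining cells it was 4.52-fold higher. Hlf was nearly level in members, at 1.08-fold [0.981–1.2], and Procr was at 0.80-fold [0.600–1.06]. In members of at least 3000 UMIs, Hlf was at 486 CPM in MLL-ENL and 404 CPM in Control. Procr was then at 54.8 against 61.9 CPM and Mecom at 358 against 181 CPM. Skida1 had 34 UMIs in MLL-ENL and 3 in Control members, a ratio of 14 [4.40–71.2]. Slamf1 was at 0.234 of the Control level [0.0878–0.531] and Ly6a at 0.499 [0.395–0.627]. Of 17 eligible targets of MLL fusions 4 were higher by 2-fold or more and none lower (median log2 ratio 0.80, against -0.09 over all eligible genes). Of 26 G2M genes 12 were at least 2-fold lower (median -0.92). Of all eligible genes 2.84% were at least 2-fold higher and 2.97% lower. The G2M sum was 3648 CPM in MLL-ENL and 5632 CPM in Control members. In the remaining cells it was also lower in MLL-ENL, at 5029 against 7469 CPM.

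Of 16 eligible interferon genes 2 were at least 2-fold lower in MLL-ENL than in Control members (median log2 ratio -0.62). None of 10 MHC class I genes was 2-fold lower, but their median log2 ratio was -0.70. Of all eligible genes 2.97% were at least 2-fold lower, and the median was -0.09. Isg15, a ubiquitin-like interferon response gene, was at 24.6 CPM in MLL-ENL and 139 CPM in Control members, a ratio of 0.177 [0.124–0.246]. In the remaining cells the ratio was 0.172. Cd74, the MHC class II invariant chain, was at 13.2 CPM in MLL-ENL and 195 CPM in Control members, a ratio of 0.0675 [0.0419–0.104]. In Control 42 of 172 members held a UMI of Cd74, and 1 cell held 170 of 402 UMIs. The mast cell genes Cma1, Cpa3, Tpsb2 and Tph1 were also among the 10 lowest, and those of Control lay in a few members. With these left out the log2 ratio of Cma1 was 0.55, against -7.63 with them.

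Between the MLL-ENL libraries, Skida1 had 5 UMIs in Skida1-deleted and 34 in MLL-ENL members, a ratio of 0.116 [0.0355–0.299]. Hlf was at 1.07-fold [0.968–1.17], Procr at 0.830-fold [0.607–1.13] and Mecom at 429 CPM in Skida1-deleted and 320 CPM in MLL-ENL members, 1.34-fold [1.2–1.49]. In members of at least 3000 UMIs, Hlf was at 467 CPM in Skida1-deleted and 486 CPM in MLL-ENL. Procr was then at 41.2 against 54.8 CPM and Mecom at 429 against 358 CPM. None of 18 eligible stem cell genes was 2-fold apart (median log2 ratio 0.09, against -0.01 over all eligible genes). Of all eligible genes only 0.237% were 2-fold higher and 0.296% lower, so that count says little about the list. Eya1, a transcriptional coactivator gene bound by MLL fusions, was at 56.5 CPM in Skida1-deleted and 21.0 CPM in MLL-ENL members, 2.69-fold higher [1.83–4.04], and 2.03-fold in the remaining cells. Myc was at 24.7 CPM in Skida1-deleted and 65.4 CPM in MLL-ENL members, a ratio of 0.378 [0.266–0.530], and 0.573 in the remaining cells. Mpo was 2.25-fold higher [1.79–2.83], with 44.6% of its UMIs in 1 cell. Car1 was at 63.2 CPM in Skida1-deleted and 235 CPM in MLL-ENL members, a ratio of 0.269 [0.219–0.328]. It was high in the shallow MLL-ENL members, and without cells under 3000 UMIs its log2 ratio was -1.38. Pf4 was 14-fold higher [8.80–23.5], but without 2 Skida1-deleted members its log2 ratio was 0.08, against 3.69 with them.

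**Figure D5:**
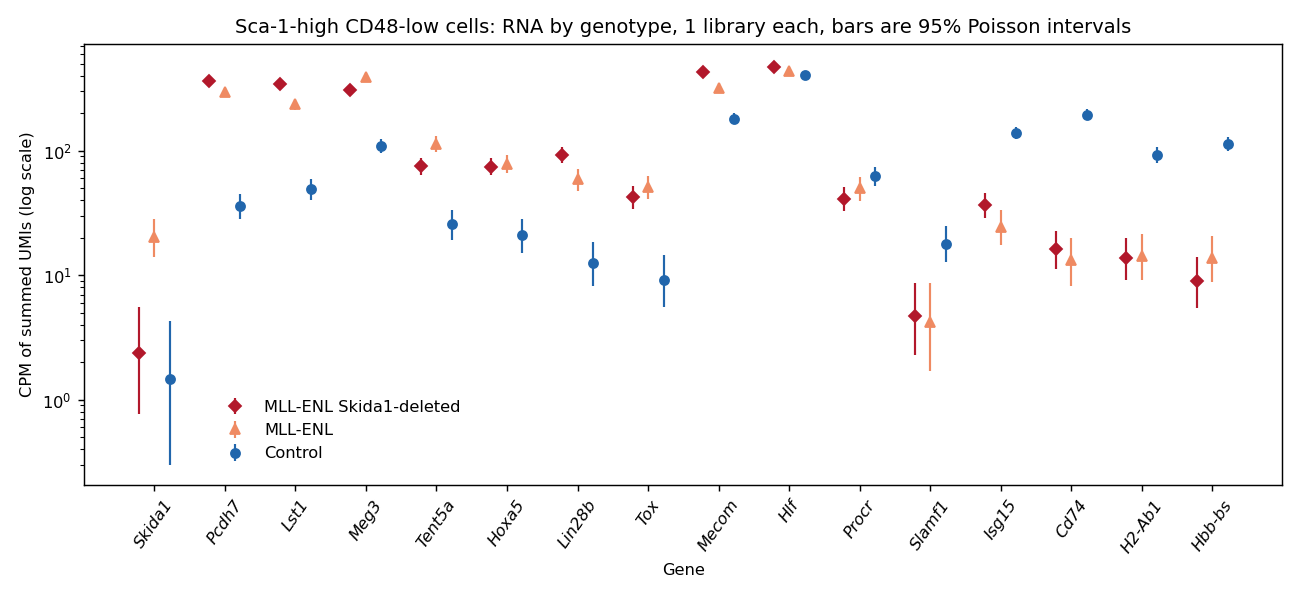
CPM of 16 genes in members by genotype, on a log axis, with 95% Poisson bars that cover counting error only, 1 library each. Pcdh7, Lst1 and Hoxa5 lie higher in both MLL-ENL libraries than in Control, Isg15 and Cd74 lie lower, and Skida1 is high in MLL-ENL alone, at 20.4 CPM.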

How the data were processed

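RNA and antibody tags were measured in 3 libraries of sorted liver cells, 1 per genotype. The authors deposited raw UMI counts per gene and tag, with no normalization; the Cell Ranger version is 6.1.2 per the file headers and 6.0.1, with build mm10, per the submitters' processing notes. The libraries held 207395090 (MLL-ENL Skida1-deleted), 198773992 (MLL-ENL) and 180656900 (Control) gene UMIs. Cells were kept with at least 1000 UMIs, 500 genes, under 10% mitochondrial UMIs and at least 200 tag counts. Tags were turned into centred log ratios of (count + 1) over the 10 tags in each cell. No doublets were removed; Scrublet in scanpy 1.11.5 called 606, 2 and 401 cells in these libraries, of which 7, 0 and 11 were members, so in MLL-ENL it did not work, and the top scores at 0.8% per 1000 cells were removed there, as in the other libraries, as an alternative.

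UMIs summed per library and class were tested with edgeR 4.0.16 (limma 3.58.1, R 4.3.3; TMM scaling, filterByExpr, Benjamini-Hochberg adjustment, called at an adjusted p under 0.05) after tests on simulated data. DESeq2 1.42.0 was an alternative. CPM was computed from all gene UMIs of a class; with it the median log2 ratio of all tested genes was 0.17, 0.15 and 0.11 in the same 3 libraries, against -0.02 in the fit. Intervals are at 95%, exact Poisson for CPM, conditional binomial for folds and Clopper-Pearson for shares, and cover counting error only. A gene entered a genotype comparison if its CPM reached 50 in 1 of the libraries and its UMIs reached 50 over both.

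Named genes were the 12 highest and 12 lowest called log2 fold changes with the same direction in all libraries and a mean CPM of at least 30 in either class, the 10 highest and 10 lowest genotype log2 ratios of (CPM + 1), the label's markers with Skida1, Hlf and Mecom, and up to 4 members of each of 23 gene lists. Mitochondrial, ribosomal protein, sex-linked, receptor segment and unnamed genes were left out. Other list members named in the text, including Hopx, Ptger4, Lin28b, Hoxa9, Isg15 in the class comparison, Kit and Cdh5, were chosen after their values were seen. Of the 12 lowest, 1 gene is not reported here. Members and lists were chosen with earlier results of these data known. Positions and promoters are from RefSeq tables of GRCm38.p6. The background cells were first taken at 10 or more Klf1 UMIs, and the minimum of 5 was added because few cells were left.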

Additional observations from a re-analysis of the deposited data

Results flagged for a closer look

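Cpa3, a mast cell protease gene, moved in opposite directions between members and remaining cells of different libraries. Its log2 ratio was -1.67 in the MLL-ENL Skida1-deleted library and -1.68 in MLL-ENL, but 3.18 in Control. The difference between the libraries was not tested. In Control 7 members (4.07%) carried the gene, and 1 of them held 68 of the 186 UMIs (36.6%).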

How the results depend on the processing

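Genes called higher and lower, 1903 and 2528 as reported, were 1129 and 1146 with the lowest 25% by CD48, 797 and 490 with log tag shares in place of centred log ratios, 114 and 75 under a strict cell filter (2000 UMIs, 1000 genes, under 5% mitochondrial), 1049 and 1477 with cells thinned to 3000 UMIs, 261 and 96 with no library block, and 1153 and 1615 with DESeq2. With the top 30% by Sca1, 1336 were lower. Of the 297, 325 and 172 members of the Skida1-deleted, MLL-ENL and Control libraries, 230, 183 and 145 stayed members with log tag shares. With at least 500 tag counts per cell 285, 188 and 169 stayed. Leaving out 1 library gave 1287 to 1892 higher and 1614 to 2406 lower, the fewest without MLL-ENL. Stem cell genes higher, 28 as reported, were 15 under the strict filter, 14 with no library block and 25 to 28 with 1 library left out. S phase genes lower, 34 as reported, were 15 with the top 30% by Sca1, 13 with log tag shares, 0 under the strict filter, 8 with no library block and 30 to 33 with 1 library left out. G2M genes lower, 39 as reported, were 14, 22, 1 and 0 under the same settings, and 36 to 39 with 1 library left out. The cause of these differences was not tested.

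Between MLL-ENL and Control, 160 and 196 genes were 2-fold higher and lower with the top 10% by Sca1, 165 and 185 with log tag shares, and 162 and 190 under the strict filter. Between Skida1-deleted and MLL-ENL members, 17 were higher with the top 10%, 16 with the top 30% and 27 with log tag shares, 112 and 67 were higher and lower under the strict filter, and 24 and 35 with thinned cells. Without thinning, the shares of members minus remaining cells were 11.3 points for Hlf, 23.1 for Mecom, 21.2 for Procr and -48.1 for Mpo, against 27.9, 33.4, 13.7 and -34.8 with it.

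Directions turned for some genes, and the cause was not tested. Between the classes the log2 fold change was -0.42 for Pf4, -0.0154 for Hba-a2 and -0.24 for Hdc with the lowest 10% by CD48, -0.000124 for Hdc with the top 10% by Sca1, and -0.36 to 7.92 for Cma1 with 1 library left out, the lowest without Control. Car1 was at 0.0471 with the top 30%, 0.17 with the lowest 25% and 0.14 under the strict filter, and Ermap at 0.12 with the top 30%, 0.10 with doublets removed and 0.32 under the strict filter. Between MLL-ENL and Control, Car1 was at -0.78 with log tag shares and -0.16 under the strict filter, Cma1 at 0.0285 with the lowest 10% and 0.55 without outlying cells, Cpa3 at 0.96 with the top 10% and 0.18 without outlying cells, and H2-Ab1 at 0.0568 with the lowest 10%. Between Skida1-deleted and MLL-ENL members Car1 was at 0.45 with log tag shares. The settings without cells under 3000 UMIs, with 500 tag counts and without outlying cells were chosen after seeing the data. No paired analysis was possible because each genotype had 1 library, as far as genotypes are compared, while the comparison of classes pairs both classes of a library through its block. With 1 library a group and 172 to 325 members in each, counting error limits genes of low level.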
